A study of Danio rerio with 14 samples.

Results

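Accessible chromatin was compared between 2 preparations of injured zebrafish heart muscle: A-Fos(-) cardiomyocytes, separated on a density gradient (n = 3 libraries), and gata4:EGFP+ cardiomyocytes, separated by fluorescence-activated sorting (n = 2). These 5 libraries are part of a series of 14. Both preparations were made 4 days after cryoinjury of the ventricle, used 5000 cells per transposition reaction, and came from minced ventricles of 6 hearts per pool, from male and female adults aged 4 to 12 months. The A-Fos(-) cells are labelled as wound-border cells, CM:A-Fos (-), and their fish received ethanol, the vehicle of the 4-hydroxytamoxifen that induces the transgene. The gata4:EGFP+ cells carry the Tg(gata4:EGFP) reporter, and neither wound-border dissection nor vehicle injection is stated for them. The labels do not name the promoter that drives the A-Fos transgene, and they describe the same enzymatic digestion before both separations. Ranks in 4 further groups are given for reference: A-Fos(+) (n = 3; induced with 0.5 mg/mL 4-hydroxytamoxifen, otherwise as A-Fos(-)), uninjured sorted myl7:nucDsRed+ cells (n = 2; 5000 cells), and uninjured junba OE and junbb OE cells (n = 2 each; gradient, 50000 cells, 7 days after induction of overexpression). All groups share the adult stage and the cardiomyocyte label. The values of these groups stand in 2 separately normalized tables, so table, isolation method, heart region, transgene and vehicle differ together and cannot be told apart in any difference given here. Nothing in the labels says that replicates came from separate experiments, so p-values measure the spread between libraries, which may be technical.

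ATAC-seq inserts sequencing adapters with the Tn5 transposase wherever DNA is not wrapped in nucleosomes, so a peak marks an open promoter or enhancer. After cryoinjury, zebrafish cardiomyocytes next to the wound switch on a gata4 reporter, take their sarcomeres apart, extend protrusions and divide. AP-1, a dimer of Jun and Fos proteins, is a transcription factor that opens chromatin after stress and injury, and A-Fos is a dominant-negative protein that binds Jun and keeps it off DNA. Density gradients separate cells by buoyancy without a marker, whereas sorting selects cells by a fluorescent reporter.

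Peaks of the 2 tables were paired where they shared at least 50% of the shorter peak, with 1 partner each and without the mitochondrial genome. Of 6338 peaks in the table with the A-Fos libraries, 6263 (98.8%) had a partner among the 16609 peaks of the table that holds the gata4:EGFP+, myl7:nucDsRed+, junba OE and junbb OE libraries, called here the shared table. These 6263 peaks made up 37.7% of the shared table, and 99.4% of the pairs were assigned to the same gene in both. Of the matched peaks, 3125 (49.9%) were promoter peaks within 500 bp of an annotated start site, 441 lay in gene bodies, 527 flanked a gene and 2170 had no assigned gene. In each library the deposited values of the matched peaks were turned into percentile ranks from 0 to 100, where 100 is the most accessible, and a rank difference is A-Fos(-) minus gata4:EGFP+ in percentile points.

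The gata4:EGFP+ replicates ranked the matched peaks almost alike, with a Spearman correlation across peaks of 0.950. A-Fos(-) replicates 2 and 3 correlated at 0.848, and A-Fos(-) replicate 1 stood apart at 0.731 and 0.751 with them. The share of all deposited values that lay on the mitochondrial genome was 79.9%, 88.0% and 87.1% in A-Fos(-) and 72.0% and 73.4% in gata4:EGFP+ (two-sided exact permutation p = 0.2, where the smallest p that 3 against 2 allows is 0.1). The shares come from separate tables, of 6338 and 16609 peaks, so this test cannot tell a difference between groups from one between tables. Within the shared table the other libraries had 82.8% to 87.9%, above both gata4:EGFP+ libraries. The mean rank of promoter peaks was 55.7 ± 3.75 (SD, n = 3) in A-Fos(-) and 57.3 ± 0.211 (SD, n = 2) in gata4:EGFP+ (exact permutation p = 1). It was 51.4 in A-Fos(-) replicate 1 and 58.5 and 57.2 in replicates 2 and 3. The depth of the libraries is unknown, since the deposited values are scaled and rounded.

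The regulatory regions of sarcomere genes, which build the contractile fibres of heart muscle, were mostly missing from the matched peaks. Of 48 shared-table peaks assigned to sarcomere genes, 5 had a partner in the A-Fos table (10.4%), beside 37.7% of all peaks. Most of the unmatched ones were open in the sorted cells. Among peaks with a mean deposited value of at least 30 in gata4:EGFP+, 4 of 36 sarcomere peaks were matched (11.1%), against 3849 of 8060 overall (47.8%), and among strong promoter peaks 3 of 23 against 2325 of 3259 (71.3%). The promoter of tnnt2a, cardiac troponin T, had values of 87 and 64 in the gata4:EGFP+ replicates and no partner. The promoters of hspb7, a small heat shock protein of muscle, at 122 and 126, of acta1b, an alpha-actin, at 123 and 101, and of desma, the muscle intermediate filament desmin, at 97 and 75, had none either. The ttn.2 promoter, of a titin gene, had 58 and 36.

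The cardiomyocyte label was checked against myl7, tnnt2a, actc1a, ttn.1, ttn.2, nppa and vmhc. All but vmhc had a shared-table peak, and vmhc had no peak in either table. The myl7 promoter, which encodes the atrial and ventricular myosin light chain of zebrafish and drives the uninjured sort reporter, lay at chr8:40464789-40465383 with 35 and 55 in gata4:EGFP+ and 315 and 313 in myl7:nucDsRed+, and had no matched peak. In gata4:EGFP+ the actc1a promoter had 9 and 13 and the ttn.1 promoter 15 and 16, against 51 and 54 and 70 and 78 in myl7:nucDsRed+. Some markers were thus also low in the sorted injured cells, whereas the tnnt2a and ttn.2 promoters given above had higher values there. The only marker peak in the A-Fos table was one 4500 bp from the myl7 start. The defining cardiomyocyte promoters were thus absent from the A-Fos table as analysed here, which goes against its cell label, and peaks of nppb and gata4 were likewise only in the shared table. How peaks were called, and on which libraries, is not given in the sources used here, so the level of these promoters in the A-Fos(-) cells is not known. In bulk chromatin, fewer cells of a type and less open chromatin per cell cannot be told apart.

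Peak lists of other cell types were matched to very different degrees. Leukocyte genes had 10 of 11 shared-table peaks matched, genes of the non-AP-1 immediate early and stress response 42 of 52, heat shock genes 22 of 32, cell cycle genes 34 of 50, cytokine and NF-kappaB genes 29 of 46, and AP-1 subunits 19 of 30. Calcium handling genes had 7 of 25, extracellular matrix genes 8 of 37, epicardial and fibroblast genes 3 of 17, endothelial and endocardial genes 4 of 24, smooth muscle genes 0 of 6, and neural and Schwann genes 0 of 2. The share of matched peaks also changed with strength: in 4 equal groups by gata4:EGFP+ mean value it was 36.5%, 20.4%, 32.0% and 61.9% from the weakest to the strongest. A missing partner is therefore no measure of a gene's accessibility by itself, and neither is a present one. Of the 10 matched leukocyte peaks, 9 had identical edges in both tables, and the list's median rank in gata4:EGFP+ was 7.15 and 9.33. Whether such peaks entered the shared table through libraries other than gata4:EGFP+ was not tested.

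**Figure D1:**
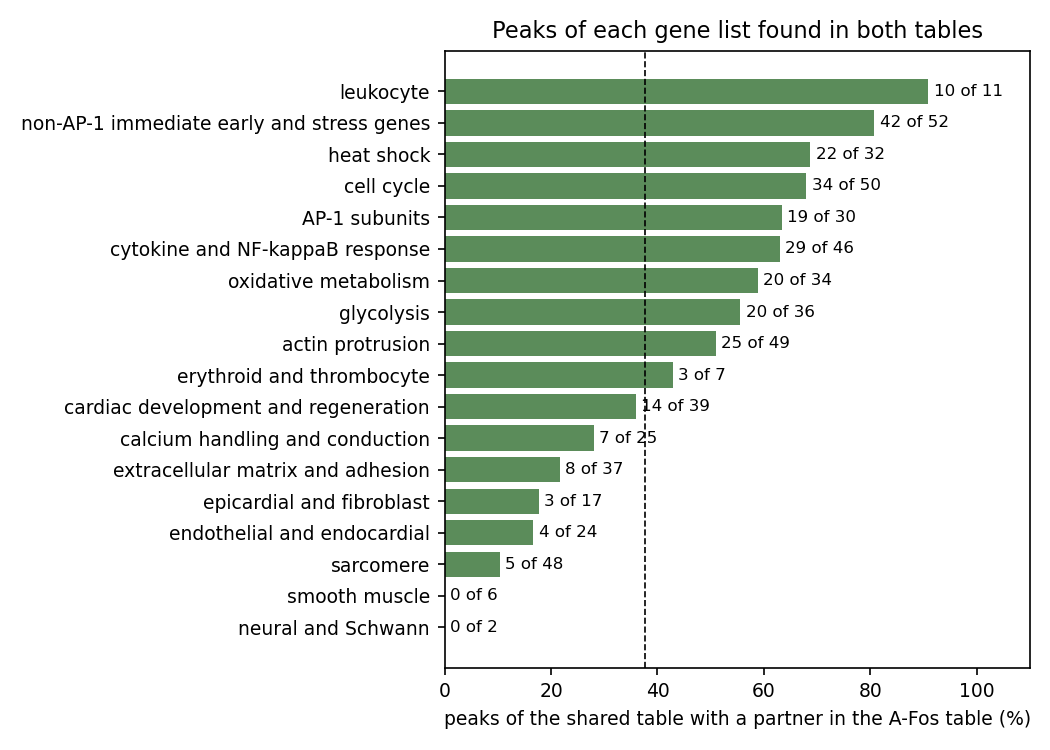
Share of shared-table peaks of each gene list (bars, in %) that had a partner in the A-Fos table; labels give matched of all peaks and the dashed line is the share over all peaks, 37.7%. Sarcomere genes stood at 5 of 48 and leukocyte genes at 10 of 11. The shares depend on how peaks entered each table, which is not known, and do not measure accessibility.

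Within the matched peaks the ranks of the A-Fos(-) and gata4:EGFP+ libraries were correlated, and limma called a small share of peaks with 3 against 2 libraries. The 6 library pairs had Spearman correlations of 0.609 to 0.714 (median 0.698), against 0.860 to 0.870 between gata4:EGFP+ and the sorted uninjured myl7:nucDsRed+ libraries of the same table, and 0.703 to 0.870 (median 0.796) between A-Fos(-) and A-Fos(+) of the same table. Over the 3674 peaks that shared at least 80% of both partners, the median was 0.812 for A-Fos(-) with gata4:EGFP+, 0.810 for A-Fos(-) with A-Fos(+) and 0.864 for gata4:EGFP+ with myl7:nucDsRed+, so the order of the first 2 was lost. A-Fos(-) with the uninjured junba OE and junbb OE libraries had medians of 0.717 over all matched peaks and 0.825 over these 3674. With myl7:nucDsRed+ they were 0.682 and 0.783. The medians with gata4:EGFP+ lay between these, so the medians show no particular likeness of the 2 injured groups. The order differed between replicates over all matched peaks. A-Fos(-) replicate 1 had 0.609 and 0.610 with gata4:EGFP+, above 0.554 to 0.581 with junb OE and 0.558 and 0.563 with myl7:nucDsRed+. Replicates 2 and 3 had their highest values of these with junb OE. By limma with Benjamini-Hochberg adjustment over all 6263 matched peaks, 154 peaks (2.46%) ranked higher in A-Fos(-) and 196 (3.13%) ranked higher in gata4:EGFP+ at adjusted p under 0.05. At unadjusted p under 0.05 the limma counts were 825 and 831. Ranks of the groups did not overlap at 1453 peaks in the first direction (23.2%) and 1402 in the second (22.4%).

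These calls rested on few libraries. Without A-Fos(-) replicate 2 or replicate 3, limma called 0 peaks in either direction, with 864 and 855 peaks at unadjusted p under 0.05 for the first and 714 and 756 for the second. Without gata4:EGFP+ replicate 1 it called 10 (0.16%) and 0, and without replicate 2 it called 5 (0.0798%) and 0, with 419 and 347 and with 436 and 378 at unadjusted p under 0.05. In these last fits the lone gata4:EGFP+ library is assumed to vary like the A-Fos(-) libraries. Without A-Fos(-) replicate 1, the one that stood apart, 150 (2.4%) and 266 (4.25%) peaks were called. All 154 and 196 rank differences kept their sign in each of the 5 fits. This was fixed in advance, since the groups of ranks did not overlap at any of these peaks, and is no sign of stability. Other settings called more peaks: 4.81% and 5.62% with normal scores of the ranks, 4.76% and 5.62% when the mean value had to reach 10 in each table, 2.89% and 3.48% with promoter and other peaks ranked separately, and 6.69% and 7.86% with all 14 libraries in the fit.

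**Figure D2:**
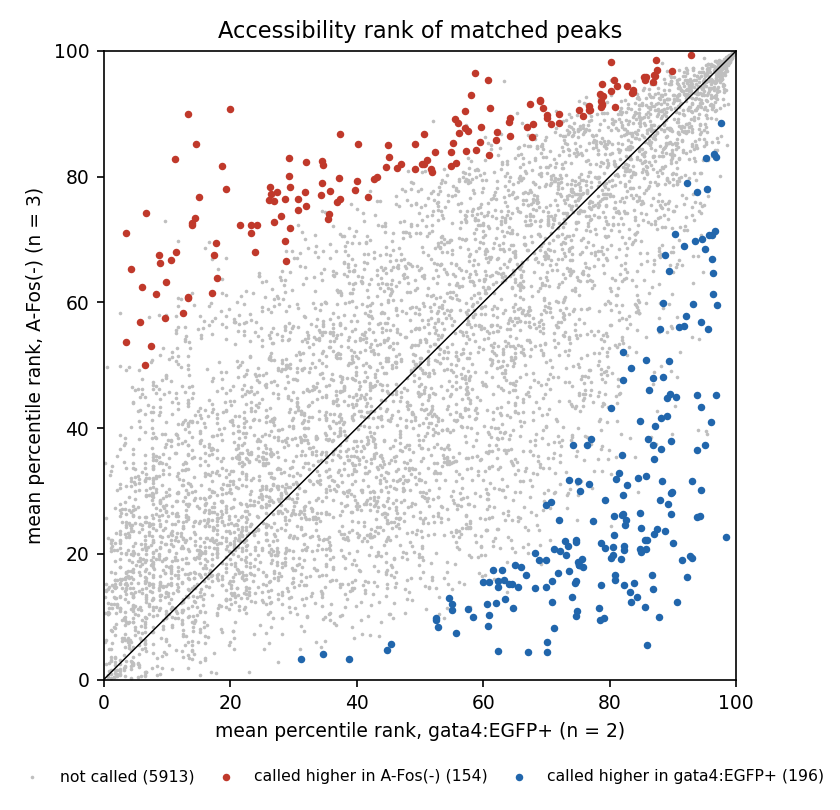
Mean percentile rank of each matched peak in gata4:EGFP+ (x axis, n = 2) against A-Fos(-) (y axis, n = 3). Red points are the 154 peaks called higher in A-Fos(-), blue points the 196 called higher in gata4:EGFP+, grey points were not called, and the line marks equal ranks.

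The rank differences moved with peak width, which differed between the tables. Of the matched peaks, 4248 (67.8%) were narrower in the A-Fos table, 6194 (98.9%) lay wholly inside their partner, and 1977 (31.6%) had identical edges. Median widths were 258 bp in the A-Fos table and 360 bp in the shared table. The ratio of the widths had a Spearman correlation of 0.637 across peaks with the rank difference. The 154 peaks higher in A-Fos(-) had a median width ratio of 1, and 141 of them (91.6%) shared at least 80% of both peaks. The 196 peaks higher in gata4:EGFP+ had a median ratio of 0.379, with median widths of 194.5 against 524.5 bp, and 2 of them shared at least 80%. Whether the widths set these rank differences was not tested.

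With 3674 peaks that shared at least 80% of both partners, re-ranked among themselves, limma called 4 peaks higher in A-Fos(-) (0.109%) and 0 higher in gata4:EGFP+ (0%), with 316 and 244 at unadjusted p under 0.05. After dividing each value by the peak's width, limma called 0 and 0 (unadjusted 527 and 515). The width ratio still had a Spearman correlation with the rank difference of 0.271 per base and 0.357 among the 3674 peaks. Neither setting therefore removed the link with width. The direction changed less: per base, 151 of the 154 and 192 of the 196 rank differences kept their sign. When all 14 libraries shared 1 estimate of the spread, a setting added after the data were seen, the 3674 peaks gave 37 (1.01%) and 18 (0.49%) calls. Where 2 widths of a peak are given below, they are A-Fos table against shared table.

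**Figure D3:**
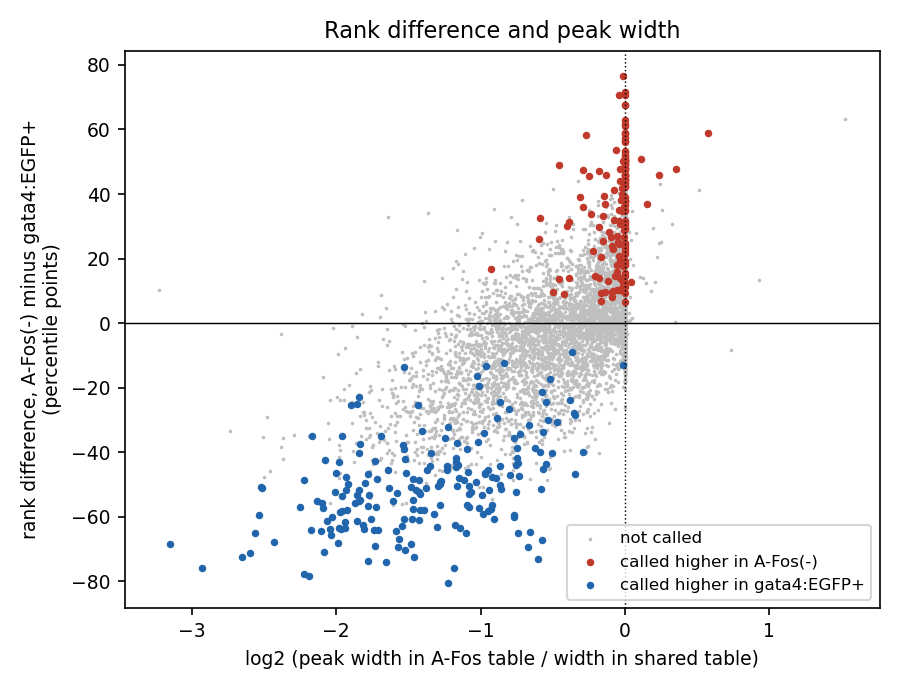
Rank difference of each matched peak (y axis, percentile points) against the log2 ratio of its width in the A-Fos table to that in the shared table (x axis). Peaks called higher in A-Fos(-) lie mostly at a ratio near 1, and those called higher in gata4:EGFP+ have narrower A-Fos peaks, with a median ratio of 0.379.

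Heat shock genes encode chaperones that refold damaged proteins, and the regulatory regions of several ranked higher in A-Fos(-) cells. Of 22 matched heat shock peaks, 5 were called higher in A-Fos(-) and 0 higher in gata4:EGFP+, beside 2.46% and 3.13% of all peaks. The median rank difference was 14.4, against 0.858 over all matched peaks, and 19 of the 22 were above zero. The ranks did not overlap in 15 peaks that were higher in A-Fos(-) and 2 that were lower, beside 23.2% and 22.4% of all matched peaks. The calls fell to 2 without A-Fos(-) replicate 1 or gata4:EGFP+ replicate 2, and to 0 without A-Fos(-) replicate 2 or 3. The median rank of the list was 86.1, 87.1 and 75.5 in the A-Fos(-) replicates and 67.2 and 63.7 in gata4:EGFP+. It was 76.1 to 87.5 in A-Fos(+), 87.4 and 81.6 in junba OE, 73.9 and 72.8 in junbb OE, all separated on gradients, and 61.7 and 62.8 in the sorted myl7:nucDsRed+ libraries. The median difference was 19 per base and 5.37 among the 18 peaks with 80% shared edges, where 2 were called.

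The clearest case was hsp70l, an inducible Hsp70 chaperone, whose promoter peak at chr8:4797951-4798493 was 542 bp wide in the A-Fos table and 549 bp in the shared table. Its percentile rank was 96.0, 95.4 and 94.8 in A-Fos(-) and 62.4 and 59.1 in gata4:EGFP+. Every A-Fos(-) replicate stood far above both sorted replicates. The rank difference was 34.7 ± 3.49 (SE; limma adjusted p = 0.0219), and 21.6 with adjusted p = 0.0409 among the peaks with 80% shared edges. Ranks of this promoter were 93.2, 93.3 and 96.2 in A-Fos(+), 94.0 and 94.7 in junba OE, 73.0 and 49.3 in junbb OE, and 80.2 and 53.3 in myl7:nucDsRed+.

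A second hsp70l peak inside the gene body, at chr8:4800285-4801162 with identical edges in both tables, ranked at 98.3, 97.3 and 94.0 against 64.0 and 53.5. Its groups were as far apart as those of the promoter (difference 37.8 ± 4.29, SE; limma adjusted p = 0.0229, and 0.0477 with 80% shared edges). Another hsp70l peak between them, 255 bp against 479 bp wide, was not called (35.2 ± 10.8, SE; adjusted p = 0.0894). The value per base gave differences of 48.6 and 56.8 for the first and second peaks, with limma adjusted p of 0.0958 and 0.126, so neither was called on that scale.

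The hsp70.2 peak at chr3:26118619-26119741 had identical edges and ranked at 98.9, 98.1 and 97.5 in A-Fos(-) against 85.3 and 75.0 in gata4:EGFP+ (difference 18 ± 2.95, SE; limma adjusted p = 0.0229). The neighbouring copies hsp70.1 and hsp70.3 ranked near the top in both groups and were not called, with differences of 9.88 (adjusted p = 0.0591) and 3.95 (adjusted p = 0.0917). These genes and hsp70l belong to 1 family; their sequence similarity was not measured here, and how reads that match several copies were counted is not given in the sources used here, so the values of single copies are uncertain. The promoter of hsp90aa1.2, an Hsp90 chaperone, ranked at 97.3, 95.8 and 97.4 against 90.6 and 89.1 (difference 6.97 ± 1.53, SE; limma adjusted p = 0.0418). The promoter of ubb, which encodes polyubiquitin, was at 98.7, 100 and 99.2 against 94.7 and 91.0 (difference 6.45 ± 1.47, SE; limma adjusted p = 0.0465). These last peaks were among the most accessible in every one of the 5 libraries, with little room above them on the rank scale.

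Not every chaperone gene had this direction. The promoter of hspb8, a small heat shock protein of muscle, ranked at 78.7, 86.8 and 72.9 in A-Fos(-) and 92.7 and 94.7 in gata4:EGFP+ without overlap (difference -14.2 ± 4.17, SE; limma adjusted p = 0.0823). The promoter of bag3, a co-chaperone that maintains sarcomeres, was at 66.2, 23.5 and 58.3 against 90.1 and 67.2, with a peak 226 bp wide against 521 bp (adjusted p = 0.222). The promoter of hsf2, a heat shock transcription factor, lay at 86.5, 87.4 and 94.6 against 69.1 and 78.8 and was not called (adjusted p = 0.0684).

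**Figure D4:**
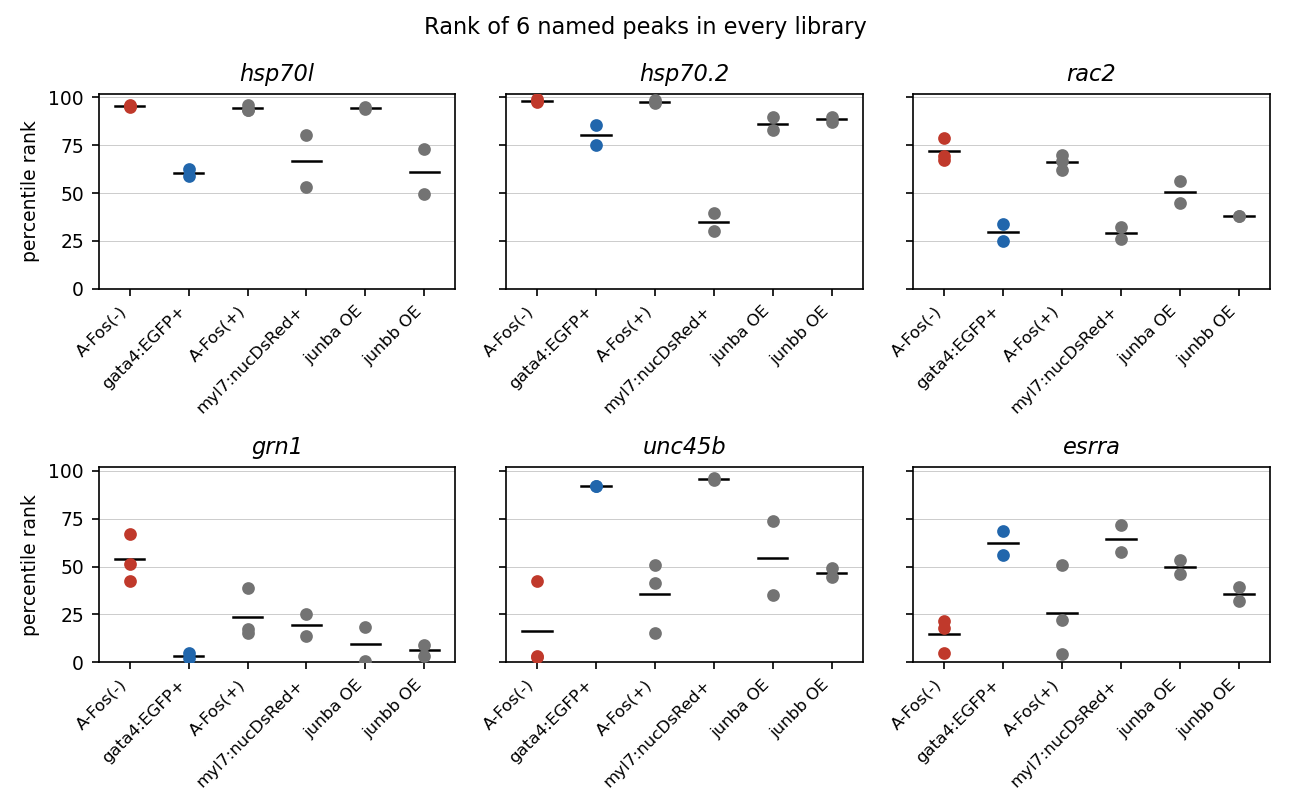
Percentile rank (y axis) in every library of the list peak with the smallest limma adjusted p of hsp70l, hsp70.2, rac2, grn1, unc45b and esrra. Points are replicates, bars are group means, red is A-Fos(-), blue is gata4:EGFP+ and grey the other groups. The hsp70l promoter peak lies at 94.8 to 96.0 in A-Fos(-) and at 59.1 and 62.4 in gata4:EGFP+, and unc45b at 2.91 to 42.6 against 92.0 and 92.3.

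Leukocyte genes mark blood cells that enter the wound, and they were among the weakest peaks of the sorted cells. Of 10 matched leukocyte peaks, 9 had identical edges in both tables, 2 were called higher in A-Fos(-) and 0 lower, beside 2.46% and 3.13% of all matched peaks. Both calls were lost when any library other than A-Fos(-) replicate 1 was left out. The median rank difference was 20.5, and 9 of the 10 were above zero. Only peaks present in both tables were ranked, so peaks weak in gata4:EGFP+ may have entered through libraries where they were higher. Whether this set the direction of the list was not tested, and the direction is no independent support. With a mean value of at least 10 in each table, 4 leukocyte peaks remained, 3 of them above zero, with a median of 23.7. The median rank of the list was 52.9, 27.9 and 18.2 in A-Fos(-) and 7.15 and 9.33 in gata4:EGFP+. A-Fos(-) replicate 1 was the highest, and without it the median difference was 7.26. In the other groups the list's median rank was 22.3 to 32.7 in A-Fos(+), 19.5 and 18.7 in junba OE, 13.9 and 13.6 in junbb OE, and 12.8 and 10.1 in myl7:nucDsRed+. Of the 53 genes of the list, 9 had any peak in the shared table; the defining markers ptprc, mpx, lyz, mpeg1.1 and csf1ra had none in either table.

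The promoter of rac2, a small GTPase of white blood cells, ranked at 67.3, 78.8 and 69.2 in A-Fos(-) and 24.9 and 34.1 in gata4:EGFP+ (difference 42.3 ± 8.98, SE; limma adjusted p = 0.0388). It kept this place without A-Fos(-) replicate 1, with a difference of 44.5 (adjusted p = 0.0462). The promoter of grn1, a granulin, ranked at 67.3, 51.5 and 42.5 against 4.93 and 2.06 (difference 50.3 ± 11, SE; limma adjusted p = 0.0424), also with identical edges. The rank ranges were far apart, but grn1 was at 38.7, 15.1 and 17.5 in A-Fos(+) of the same table.

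Other members varied more between A-Fos(-) replicates. The promoter of spi1a, a paralogue of the myeloid factor PU.1, was at 61.0, 23.5 and 12.5 against 7.15 and 3.69 (adjusted p = 0.269). The promoter of plek, pleckstrin of leukocytes and thrombocytes, was at 74.3, 34.9 and 33.9 against 4.93 and 13.6 (adjusted p = 0.133). In both, replicate 1 was the high one. The promoter of cebpb, a factor that many cell types use, lay in the other direction at 8.62, 49.1 and 47.8 against 69.9 and 70.6 (adjusted p = 0.151), and it was the only peak of the list with unlike edges, 184 against 329 bp. The part of blood cells in the other differences was not tested.

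The 12 genes with the largest called differences toward A-Fos(-) gave 9 peaks with at least 80% shared edges. The promoter of mif4gdb, which encodes a MIF4G-domain protein, at chr3:11088837-11089235, ranked at 88.5, 94.8 and 89.0 in A-Fos(-) and 18.3 and 21.7 in gata4:EGFP+. This was the largest difference toward A-Fos(-) of any called peak with a gene name (difference 70.7 ± 7.41, SE; limma adjusted p = 0.0219), and it was called again among peaks with 80% shared edges (56.4, adjusted p = 0.0409). The promoter was also high in A-Fos(+), at 90.2 to 92.6, in junba OE, at 87.8 and 89.5, and in myl7:nucDsRed+, at 76.2 and 79.6. It was lower in junbb OE, at 37.8 and 52.6, and lowest in gata4:EGFP+. A peak with no assigned gene at chr4:42760604-42760829 had a difference of 76.5, the largest in this direction, and was the fourth called with 80% shared edges (65.7, adjusted p = 0.0409).

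A gene-body peak of rab8b, a small GTPase of vesicle transport, ranked at 90.4, 68.2 and 71.7 against 18.3 and 11.8, with identical edges (difference 61.8 ± 10.3, SE; limma adjusted p = 0.0229). A gene-body peak of stk17b, an apoptosis-related kinase, was at 83.7, 63.7 and 72.9 against 23.7 and 5.04 (59.0). One of bik, which encodes a pro-apoptotic BCL2-family interactor, was at a mean of 62.4 ± 11.6 (SD, n = 3) against 6.09 ± 1.49 (SD, n = 2), a difference of 56.3. The A-Fos(-) ranks of all 3 exceeded the sorted ones by more than their own range. Their deposited values in the gata4:EGFP+ replicates were low, at 12 and 8 for rab8b, 16 and 4 for stk17b and 5 and 4 for bik. As with the leukocyte list, peaks this weak in gata4:EGFP+ may have entered through libraries where they were higher. Whether this set part of the differences was not tested, for these peaks or for the others called higher in A-Fos(-). The remaining names of this direction were syne1b, a nesprin that ties the nucleus to the cytoskeleton (58.8, per base 45.5; 382 against 256 bp), fam167b (56.6), smarcal1, a DNA-annealing helicase (53.8), fam46ab (50.8) and tcn2, a vitamin B12 carrier (50.7). The innate immunity genes traf1, an adaptor of tumour necrosis factor receptors, and tlr3, a receptor for double-stranded RNA, had promoter differences of 48.9 and 47.9, and per base of 34.3 and 36.4, with peaks of 538 against 737 bp and of 311 against 244 bp.

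The 196 peaks higher in gata4:EGFP+ nearly all had a far narrower peak in the A-Fos table, so values per base are given beside those named. The promoter of unc45b, a myosin chaperone needed to assemble thick filaments and the only called sarcomere peak, ranked at 42.6, 2.91 and 3.54 in A-Fos(-) and at 92.0 and 92.3 in gata4:EGFP+ (difference -75.8 ± 13.8, SE; limma adjusted p = 0.0298). The peak was 289 bp against 657 bp wide, and the difference per base was -75.4 (adjusted p = 0.0958). It ranked at 96.3 and 95.3 in myl7:nucDsRed+, 73.6 and 35.1 in junba OE, 44.3 and 49.3 in junbb OE and 41.2, 15.1 and 51.0 in A-Fos(+). Both sorted groups lay above every gradient library, but the peak was chosen for its difference between A-Fos(-) and gata4:EGFP+. A-Fos(+) shares table and edges with A-Fos(-), and the junb groups differ in overexpression and cell number. The part of the separation method was not tested.

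A gene-body peak of twf2b, twinfilin, which binds actin monomers, ranked at 14.8, 26 and 18.2 against 92.6 and 92.7 (difference -73.0 ± 9.32, SE; limma adjusted p = 0.0229), and per base it was -79.5. Its widths were closer, at 233 against 353 bp. The promoter of hnrnpul1l, an RNA-binding protein gene, had -77.7 and per base -48.1, with 172 against 804 bp. The promoter of meis1b, a homeobox factor that restrains cardiomyocyte division in mouse, had -72.4 and per base -22.1, with 170 against 1067 bp. The promoter of cebpd, a stress-responsive transcription factor, ranked at 14.8, 23.5 and 3.54 against 87.4 and 79.1 (difference -69.3; per base -51.7). Its widths were 227 against 675 bp. These peaks ranked low in all A-Fos(-) libraries and high in both sorted ones, and per base the gap was as large for twf2b and smaller for the other 3.

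For ammecr1 and smarcc1b, with very unlike widths, little or no difference was left per base. The promoter of ammecr1, 137 against 1217 bp, had -68.3 and turned to 8.05 per base. The promoter of smarcc1b, a subunit of the SWI/SNF chromatin remodeller, 156 against 924 bp, went from -65.1 to -12.2. More was left for a peak flanking kat6a, a histone acetyltransferase gene, 202 against 859 bp, with -71.0 and per base -36.5. The acat2 promoter, of an acetyl-CoA acetyltransferase, 205 against 615 bp, had -64.5 and per base -46.1. The amd1 promoter, of polyamine synthesis, 313 against 1345 bp, had -64.4 and per base -37.1. A gene-body peak of si:ch211-230g15.5, 143 against 423 bp, had -66.9 and per base -54.8. A peak flanking zgc:158463, 200 against 318 bp, had -69.3 and per base -79.0, so its gap did not shrink.

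Only 2 peaks called higher in gata4:EGFP+ shared 80% of both partners, and they are named although chosen after their values were seen. A gene-body peak of ube2d2l, a ubiquitin-conjugating enzyme gene, ranked at 59.4, 62.8 and 45.3 against 95.1 and 96.0 (difference -39.8 ± 6.97, SE; limma adjusted p = 0.0267). A peak flanking orai1a, the store-operated calcium channel subunit, ranked at 80.7, 86.8 and 83.1 against 96.9 and 96.2 (difference -13.0 ± 2.51, SE; adjusted p = 0.0328). Neither group of ranks overlapped, and among peaks with 80% shared edges both had adjusted p = 0.101.

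Among genes of energy metabolism, the called peaks were higher in gata4:EGFP+. Of 20 matched peaks of oxidative metabolism, 3 were called higher in gata4:EGFP+ and 0 higher in A-Fos(-), beside 3.13% and 2.46% of all matched peaks. The median difference was -10.8, and it was -6.19 per base and -2.77 over the 8 peaks with 80% shared edges. Without A-Fos(-) replicate 1 the median was -5.39 and 1 peak was called, and without any other single library of the 5 none was. Of 20 glycolysis peaks the counts were 3 and 0, with a median of -6.36, of -6.79 per base, of -9.15 over the 5 peaks with 80% shared edges and, without gata4:EGFP+ replicates 1 and 2 in turn, of -3.94 and -10.1. Without A-Fos(-) replicate 1, 4 glycolysis peaks were called, and without any other single library of the 5 none was. The promoter of esrra, an oestrogen-related receptor of mitochondrial genes, ranked at 17.7, 5.12 and 21.5 against 68.5 and 56.3 (difference -47.6 ± 10.6, SE; limma adjusted p = 0.0435; 141 against 267 bp). A peak of its coactivator gene ppargc1b had -50.9 and per base -37.8, and the promoter of atp5f1b, the ATP synthase beta subunit, had -42.7 and per base -16.8. In glycolysis the called peaks belonged to slc2a1b, a glucose transporter (-52.8), tpi1a, triosephosphate isomerase (-49.9), and hk1, hexokinase (-25.0). These 6 peaks were 141 to 252 bp wide in the A-Fos table and 267 to 912 bp in the shared table, and per base their differences ran from -50.4 for esrra to -2.68 for hk1.

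Among cell cycle genes, 2 of 34 matched peaks were called higher in A-Fos(-) and 0 in gata4:EGFP+, beside 2.46% and 3.13% of all matched peaks. Both calls were lost when any library other than A-Fos(-) replicate 1 was left out. The median was 8.42 with 27 above zero, but it was 3.51 per base and 0.490 with 80% shared edges. Over the 8 peaks with identical edges it turned to -3.68, with 3 above zero. The promoter of cdk2, a cyclin-dependent kinase of S phase entry, ranked at 85.1, 77.3 and 90.0 against 60.0 and 57.5 (difference 25.4 ± 5.90, SE; limma adjusted p = 0.0485). The promoter of aurka, a mitotic kinase, was at 86.1, 86.8 and 85.9 against 69.1 and 66.2 (difference 18.6 ± 4.12, SE; adjusted p = 0.0427). The groups did not overlap at either peak. With 80% shared edges the differences were 11.3 and 7.41 and were not called (limma adjusted p = 0.339 and 0.341).

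The genes of the AP-1 subunits themselves were not called in either direction. Of 19 matched peaks, 0 were called by limma. Over all matched peaks the shares were 2.46% higher in A-Fos(-) and 3.13% higher in gata4:EGFP+. At such shares few or no calls fall among 19 peaks of any kind, so the 0 is nothing particular to this list. Of the 19 peaks, 6 were above zero and the median was -3.02. The ranks failed to overlap in 6 peaks, all higher in gata4:EGFP+, beside 22.4% of all matched peaks in that direction. Of the 7 peaks with 80% shared edges, 0 were among these 6. Re-ranked, the 7 had a median of -5.91 with 1 above zero. The jun promoter ranked at 94.3, 90.9 and 93.1 in A-Fos(-) and at 96.6 in both gata4:EGFP+ replicates (difference -3.85; adjusted p = 0.175; 496 against 812 bp). The promoter of fosab, a Fos gene, was at 91.5, 91.5 and 83.1 against 92.8 and 88.5 (adjusted p = 0.739), and that of junba, a JunB gene, at 81.8, 85.6 and 87.3 against 92.0 and 83.8 (adjusted p = 0.614). The upstream region of junbb was at 82.8, 78.8 and 74.9 against 88.4 and 92.7 without overlap (adjusted p = 0.0900). The promoters of jun, fosab and junba ranked above 80 in all 5 libraries.

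The remaining lists had 0 to 3 calls each. Over all matched peaks, 2.46% were called higher in A-Fos(-) and 3.13% higher in gata4:EGFP+. Counts this small are not read as results about the lists. Of 42 matched peaks of non-AP-1 immediate early and stress genes, cebpd was the only one called, and the median was -0.921. Of 25 actin protrusion peaks, a gene-body peak of actb2, beta-actin, was called higher in A-Fos(-) (37.7, with identical edges), and 2 peaks were called higher in gata4:EGFP+, among them that of nck1a, an adaptor of actin assembly (-45.2, per base -45.5; 175 against 260 bp). Of 29 cytokine and NF-kappaB peaks, traf1 was called in one direction and jak2a, a cytokine receptor kinase (-45.5, per base -28.8; 149 against 386 bp), in the other. Single calls toward gata4:EGFP+ came from 3 lists. Of 14 cardiac development peaks, that of fgfr2, a fibroblast growth factor receptor, had -44.5 and per base -37.1, with 176 against 396 bp. Of 8 matrix and adhesion peaks, that of ilk, integrin-linked kinase, had -48.4 and per base -31.1, with 175 against 485 bp. Of 3 epicardial and fibroblast peaks, that of tgfb3, a transforming growth factor, had -32.2 and per base -25.9, with 325 against 762 bp. No call came from 7 calcium handling, 4 endothelial or 3 erythroid and thrombocyte peaks. Among these the promoter of klf2b, a flow-responsive factor of endothelium, ranked at 67.3, 68.2 and 47.8 against 18.3 and 20.5 (adjusted p = 0.0611). The distal myl7 peak at chr8:40469324-40469545 ranked at 29.1, 53.5 and 52.2 against 9.37 and 2.06 (adjusted p = 0.0770).

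**Figure D5:**
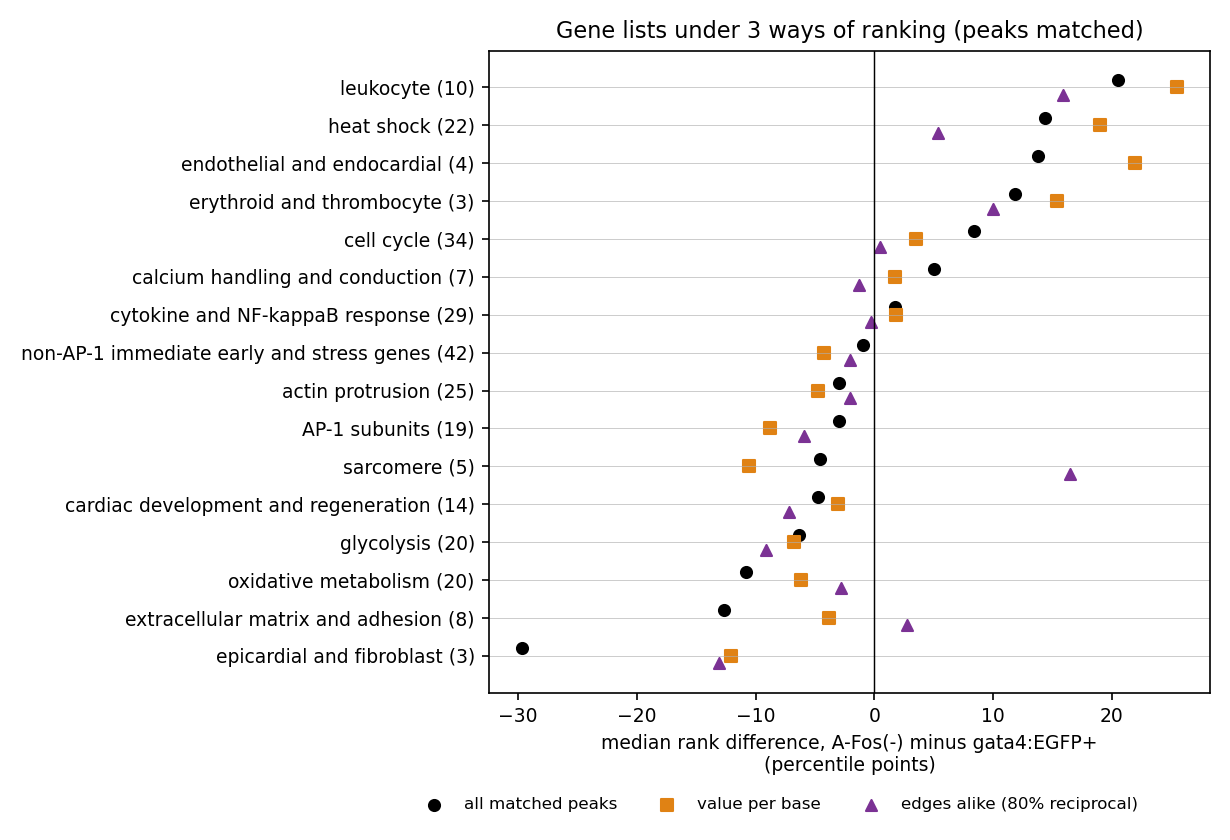
Median rank difference (x axis, percentile points, A-Fos(-) minus gata4:EGFP+) of each gene list with all matched peaks (circles), with values per base (squares) and with peaks that share at least 80% of both partners (triangles); numbers in brackets are matched peaks. Heat shock lies at 14.4, 19 and 5.37 and leukocyte at 20.5, 25.5 and 15.8, while cell cycle falls from 8.42 to 0.490.

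The same pair of separation methods occurred in uninjured hearts, in libraries that share none with those above: junba OE and junbb OE cells came from gradients and myl7:nucDsRed+ cells from sorting, although overexpression and 50000 instead of 5000 cells differ too. The difference of mean ranks between the 4 junb libraries and the 2 myl7:nucDsRed+ libraries had a Spearman correlation across the 6263 peaks of 0.178 with the A-Fos(-) minus gata4:EGFP+ difference, and of 0.246 over the 3674 peaks with 80% shared edges. All these libraries lie in 1 table with 1 set of peak edges, and whether the uninjured difference moves with peak width was not tested. Of the 154 peaks called higher in A-Fos(-), 107 (69.5%) ranked higher in junb OE than in myl7:nucDsRed+, against 49.5% of all matched peaks. Of the 196 called higher in gata4:EGFP+, the count was 62 (31.6%). Peaks are not independent replicates, and these shares are descriptions. Called peaks were also selected on gata4:EGFP+ ranks, which correlated more with myl7:nucDsRed+ (median 0.865 over all matched peaks) than with junb OE (0.839). Whether this set part of the shares was not tested.

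The mean rank in every group describes the called peaks further. Peaks called higher in A-Fos(-) had median ranks of 82.7 in A-Fos(-), 80.3 in A-Fos(+), 63.0 in junba OE, 59.6 in junbb OE, 54.8 in myl7:nucDsRed+ and 46.6 in gata4:EGFP+. Peaks called higher in gata4:EGFP+ had 22.3 in A-Fos(-), 32.2 in A-Fos(+), 63.4 in junba OE, 65.5 in junbb OE, 74.5 in myl7:nucDsRed+ and 82.1 in gata4:EGFP+. In both sets A-Fos(-) and gata4:EGFP+ lay at opposite ends, but the peaks had been selected for a difference between these groups. Their distance is therefore no further finding. A-Fos(+) lay next to A-Fos(-), with which it shares table and peak edges, and the other groups share those of gata4:EGFP+. Whether table or edges set the place of A-Fos(+) was not tested. Within the shared table, both junb groups lay nearer to the A-Fos libraries than the sorted uninjured cells did. The selection on gata4:EGFP+ ranks bears on this order too, since they correlated more with myl7:nucDsRed+ (median 0.865) than with junb OE (0.839). Whether the selection set the order was not tested.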

How the data were processed

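ATAC-seq peaks of zebrafish cardiomyocytes were analysed from 2 deposited tables. Per the file headers and names, the authors' values per peak and library are scores: read counts corrected for background, scaled by DESeq within each table and rounded to whole numbers. Per the file headers, the deposited tables also give the fraction of each peak inside the gene body and the distance of its centre to the start site. Per the submitters' processing notes, the tools included DESeq and DESeq2 1.18.1, MACS2, Picard 2.18.16, STAR 2.6.1d, deepTools 2.5.7 and Trimmomatic 0.36, and the builds are named danRer11 and GRCz11; roles and settings are not given in the sources used here. Coordinates are as deposited.

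Peaks were matched by shared bases, since values are comparable only within a table, and ranked within each library as 100 × (rank − 0.5)/n. Ranks were compared with limma 3.58.1 (R 4.3.3; trend and robust; two-sided; Benjamini-Hochberg over all matched peaks). Scaling a whole library leaves ranks as they are; background correction and peak edges do not. Single values per library were compared by exact permutation with SciPy 1.17.1. The code was checked on simulated ranks.

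Named genes are the 12 largest non-overlapping calls per direction, up to 4 calls per list and direction, and sort-reporter and natriuretic peptide genes. Members and lists were chosen with earlier results of these data known. Alternatives were normal scores, value per base, reciprocal overlap of at least 80%, a mean value of at least 10, separate ranking of promoter peaks, all 14 libraries, the replicate block and each replicate left out. Sequence features were not analysed here. Of the called peaks, 1 of the actin protrusion list is not reported here.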

Additional observations from a re-analysis of the deposited data

How the results depend on the processing

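Counts of peaks higher in A-Fos(-) and in gata4:EGFP+, 154 and 196 as reported, were 301 and 352 with normal scores of the ranks, 253 and 299 with a mean value of at least 10 in each table, 181 and 218 with promoter and other peaks ranked separately, 419 and 492 with all 14 libraries in the fit, 0 and 0 per base, and 4 and 0 with 80% reciprocal overlap. Leaving out 1 library each gave 0 to 150 and 0 to 266. Alternatives chosen after seeing the data gave 0 and 0 with identical peak edges (202 and 152 at unadjusted p under 0.05 by limma), 0 and 0 with 80% reciprocal overlap and A-Fos(-) replicate 1 left out (402 and 399), 0 and 0 with 80% reciprocal overlap per base (277 and 236), and 37 and 18 with 80% reciprocal overlap and all 14 libraries. The replicate block gave 0 and 0 (681 and 710). Replicate 3 exists only in A-Fos(-), so the block takes up that library. The median difference of 0.523 was the same as without A-Fos(-) replicate 3, and the block is no separate check. Deviations of same-numbered libraries from their group means correlated at 0.0192 and -0.00307, so the numbers are not taken to pair the libraries.

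The heat shock median of 14.4 was 5.37 with 80% reciprocal overlap, with or without all 14 libraries in the fit, 5.09 when A-Fos(-) replicate 1 was also left out, and 2.09 with identical edges; without 1 library it ran from 12.2 to 15.0, and the leukocyte median from 7.26 to 29.1. The median correlation between A-Fos(-) and gata4:EGFP+ of 0.698 was 0.611 per base, 0.812 with 80% reciprocal overlap and 0.620 with a mean value of at least 10. The ammecr1 difference turned to 8.05 per base, and no other called peak that the text names changed sign in the alternatives run. Of the 45 named peaks, 43 kept their side of the threshold with all 14 libraries and 1 did so per base. That 1 was the distal myl7 peak, which was not called as reported or per base (limma adjusted p = 0.0770 and 0.187). No named call was kept per base. The cause of these shifts was not tested. Depth is unknown, and 3 against 2 libraries limits every call.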
